A study of Homo sapiens with 6 samples.

Results

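The metallothionein genes and their regulator MTF1 were followed in BHT101 cells that received an SK4 plasmid. The set holds 8 metallothionein genes (MT1A, MT1E, MT1F, MT1G, MT1H, MT1M, MT1X and MT2A) and MTF1, taken by gene symbol, and all 9 were present among the 32896 genes of the table. BHT101 is an established human cell line from an anaplastic thyroid carcinoma, and SK4 is the calcium-activated potassium channel encoded by KCNN4. The SK4 group (n = 3) is BHT101 cells transfected with an SK4 overexpression plasmid, and the control group (n = 3) is BHT101 cells transfected with a control plasmid. Both groups were transfected with a lipid reagent and harvested after 48 h, so transfection itself is shared by both. The sources used here do not name the plasmid's promoter or the share of cells that took it up. One treatment label, that of control replicate 3, writes BHT102, while its other labels write BHT101, and it was kept as a control. No label says whether replicates came from separate cultures, so intervals measure the spread between these libraries, which may be technical.

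The genes were chosen by their FPKM values in these SK4 and control libraries, with the difference in MT1M already known. Every difference between the plasmids for these genes is therefore given as a description without a p-value, and is not evidence for the choice.

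Libraries held an estimated 36500000 to 38300000 fragments in the SK4 group and 29700000 to 38500000 in the control group. Control replicate 3 was the shallowest, and its tested genes lay lower than in the other controls by a median log2 difference of -0.097. KCNN4 was at 184.1, 147.7 and 169.2 FPKM in the SK4 libraries, against 8.31, 8.26 and 8.52 FPKM in the control libraries (log2 fold change 4.23, limma adjusted p = 8.83e-07). FPKM is the number of fragments scaled by gene length and by the mapped fragments of the library. Levels of different genes can be compared only as far as the length taken for each gene is right. Keratin and other epithelial markers were present (all 6 of 6 tested, summed 595.4 to 648.3 FPKM in SK4 and 576.8 to 626.2 FPKM in control libraries). The 7 thyroid follicular markers summed to 0.46 to 0.53 FPKM in SK4 and 0.41 to 0.56 FPKM in control libraries, so the defining genes of thyroid follicular cells were at or near 0. Endothelial markers summed to at most 0.43 FPKM in SK4 and 0.42 FPKM in control libraries. Leukocyte markers summed to 3.62 to 4.45 FPKM in SK4 and 3.98 to 4.62 FPKM in control libraries, and fibroblast markers to 23.5 to 31.9 FPKM in SK4 and 22.5 to 27.6 FPKM in control libraries. Of these, CD14 (3.32 to 4.20 FPKM in SK4, 3.72 to 4.43 FPKM in control) and LUM (22.8 to 31.2 FPKM in SK4, 21.9 to 26.9 FPKM in control) passed the filter on low values, while PTPRC and COL1A1 did not exceed 0.01 and 0.08 FPKM in any library.

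Metallothioneins are small intracellular proteins in which many cysteines bind zinc, copper and cadmium. They buffer free zinc and take part in the defence against toxic metals and oxidants. MTF1 is a zinc-finger transcription factor that senses zinc and activates metallothionein genes through short DNA elements called metal response elements. Glucocorticoids and inflammatory cytokines are also known inducers, best described for MT2A. MT1G has been described as silenced by promoter methylation in papillary thyroid carcinoma.

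The family is held together by its cysteines and lies in 1 cluster on chromosome 16. The 8 genes span 75998 bp in GRCh38, with MT1G on the minus strand and the others on the plus strand, while MTF1 lies on chromosome 1 at 37809567 to 37859620 (minus strand). In the GENCODE release 29 transcripts, each of the 8 coding sequences was 186 nt long with 61 codons before the stop, and 20 of the 61 (32.8%) were cysteine codons. Over the 28 pairs of genes the coding sequences were 88.7% to 95.2% identical, with a median of 91.9%. The 3 coding sequences below belong to the gene with the highest level (MT2A), the second highest (MT1E) and the one with the largest difference between the plasmids (MT1M). Capitals mark the cysteine codons, and the sequences run 5′ to 3′ from start to stop codon.
MT2A: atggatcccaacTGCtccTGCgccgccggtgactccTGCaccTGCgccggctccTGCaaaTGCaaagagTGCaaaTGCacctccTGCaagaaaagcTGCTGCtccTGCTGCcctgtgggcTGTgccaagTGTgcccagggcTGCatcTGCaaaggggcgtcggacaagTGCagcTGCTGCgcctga
MT1E: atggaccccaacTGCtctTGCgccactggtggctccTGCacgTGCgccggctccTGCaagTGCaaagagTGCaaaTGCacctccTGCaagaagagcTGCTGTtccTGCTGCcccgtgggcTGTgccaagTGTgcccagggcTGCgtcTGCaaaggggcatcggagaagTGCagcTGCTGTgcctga
MT1M: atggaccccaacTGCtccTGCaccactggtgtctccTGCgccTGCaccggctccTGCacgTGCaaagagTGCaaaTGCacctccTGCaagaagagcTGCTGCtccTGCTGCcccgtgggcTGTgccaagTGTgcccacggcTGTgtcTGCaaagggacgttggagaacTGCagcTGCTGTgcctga
All 3 keep the cysteine codons in the same places, and the differences lie in the codons between them or in the third base. MT1M was 92.5% identical to MT1E and 89.8% to MT2A.

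MTF1 acts through the upstream regions, which the RefSeq promoter table (GRCh38.p14) gives for 4 of the 9 genes, MT2A, MT1X, MT1H and MTF1. The core of the metal response element was searched as TGCACNC and TGCGCNC on both strands in the 250 bases before the transcription start, counting each start position, so that matches may overlap. Of all 35116 upstream regions of that length, 24.8% held at least 1 match. The region of MT2A (chr16:56608334-56608583, plus strand) held 7, a number that 11 of the 35116 regions reached. It is counted from the RefSeq start of MT2A, which lies inside the longer GENCODE gene model used for the gene's position. That of MT1X (chr16:56682220-56682469, plus strand) held 4, reached by 130 regions, and that of MT1H (chr16:56669564-56669813, plus strand) held 8, reached by 6 regions. No match was present in the region of MTF1. The regions of MT1X and MTF1 also reach into the GENCODE gene models, whose starts are at 56682424 (MT1X, plus strand) and 37859620 (MTF1, minus strand). The upstream regions of the 3 metallothionein genes are shown because the same element stands before genes with very different levels in these cells. Capitals mark the matches.
MT2A: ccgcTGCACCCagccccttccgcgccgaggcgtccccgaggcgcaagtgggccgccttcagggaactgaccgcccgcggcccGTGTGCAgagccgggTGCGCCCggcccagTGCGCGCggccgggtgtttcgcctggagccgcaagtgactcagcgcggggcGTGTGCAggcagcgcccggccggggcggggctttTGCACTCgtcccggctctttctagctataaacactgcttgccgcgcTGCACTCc
MT1X: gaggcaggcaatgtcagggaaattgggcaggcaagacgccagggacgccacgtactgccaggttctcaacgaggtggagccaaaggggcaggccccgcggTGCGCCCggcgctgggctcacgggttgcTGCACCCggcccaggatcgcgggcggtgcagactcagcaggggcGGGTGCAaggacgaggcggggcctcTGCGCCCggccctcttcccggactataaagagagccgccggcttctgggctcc
MT1H: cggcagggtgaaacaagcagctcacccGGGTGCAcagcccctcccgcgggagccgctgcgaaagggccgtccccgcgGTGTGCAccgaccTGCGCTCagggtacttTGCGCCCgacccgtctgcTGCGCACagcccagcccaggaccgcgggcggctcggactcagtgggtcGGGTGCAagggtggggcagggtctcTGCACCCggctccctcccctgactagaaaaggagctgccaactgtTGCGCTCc
A match is a stretch of letters, and binding was not measured in this series.

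The summed FPKM of the family came almost entirely from 2 of its genes. MT2A (ENSG00000125148.7, chromosome 16 at 56608199 to 56609497), the major human isoform, averaged 120.2 ± 6.66 FPKM in SK4 and 122.2 ± 3.15 FPKM in control libraries (SD, n = 3 each). By mean level over the 6 libraries it ranked 338 among the 11139 tested genes. MT1E (ENSG00000169715.15, 56625475 to 56627112) averaged 57.7 ± 0.934 FPKM in SK4 and 60.3 ± 1.76 FPKM in control libraries and ranked 718. These 2 genes together made up 95.9% to 96.7% of the summed FPKM of the 8 genes in every library of both groups. MT1X followed at a mean of 3.17 ± 0.121 FPKM over the 6 libraries (SD, n = 6), so that MT2A stood 38.2 times above it. The order below MT1X was MTF1 (2.15 ± 0.162 FPKM), MT1A (1.82 ± 0.476 FPKM) and MT1M (1.03 ± 0.30 FPKM). MT1G (0.34 ± 0.15 FPKM) and MT1F (0.28 ± 0.061 FPKM) came next. MT1H was last, listed at 0 in 4 of the 6 libraries. The ranges over libraries did not overlap between MT2A, MT1E and MT1X, nor between MT1X and MTF1. MTF1 and MT1A overlapped, as did MT1A and MT1M over all libraries, and MT1G and MT1F. This order depends on the length assigned to each gene. The summed exon length in GENCODE release 29 was 396 nt for MT1A and 942 nt for MT1M. MT1A held an estimated 75 fragments in SK4 and 82 in control libraries, and MT1M held 136 and 75.

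**Figure D1:**
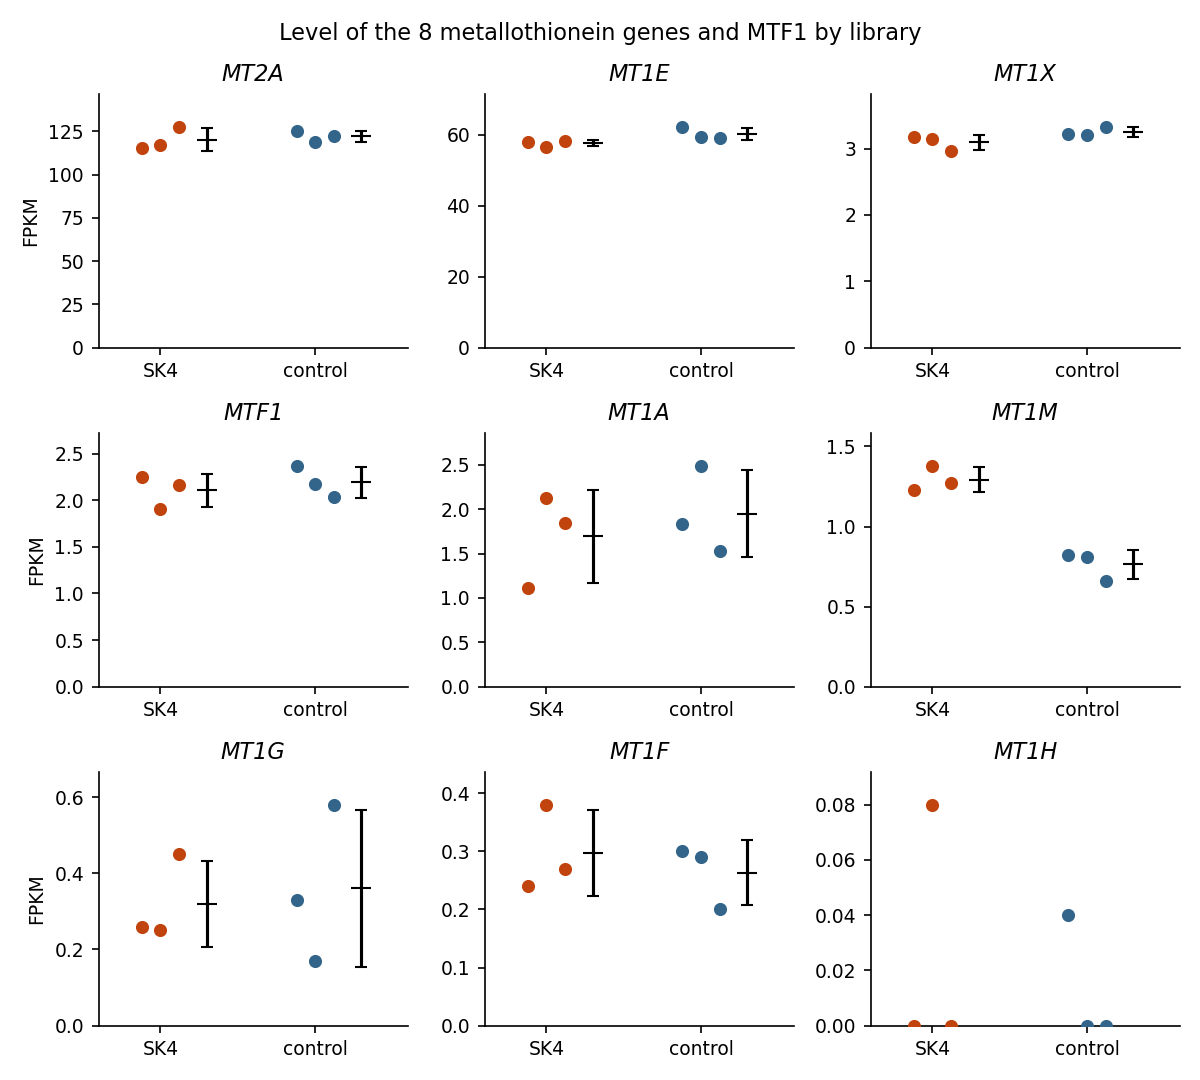
FPKM of each gene (vertical axis, own scale per panel, starting at 0) in the 3 SK4 and 3 control libraries, with the mean ± SD (n = 3) beside the points except for MT1H, which was at 0 in 4 libraries. MT1M is the gene whose SK4 points (1.23 to 1.38 FPKM) all lie above its control points (0.66 to 0.82 FPKM).

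The low genes rest on few fragments. From the depth and the summed exon length in GENCODE release 29, 1 fragment is worth 0.0276 to 0.0357 FPKM for MT1M and 0.0656 to 0.085 FPKM for MT1A. By the same estimate MT1H held 0, 2 and 0 fragments in SK4 replicates 1 to 3 and 1, 0 and 0 in control replicates 1 to 3. MT1G held 7, 7 and 13 fragments in the SK4 and 9, 5 and 13 in the control libraries. MT1F held 17, 26 and 20 fragments in the SK4 and 20, 21 and 11 in the control libraries. For MT1G, MT1F and MT1H a difference between the plasmids of moderate size was not detectable at this depth. MT2A, in contrast, rested on at least 5472 fragments in the SK4 and 4728 in the control libraries, and counting error alone gives it a coefficient of variation of at most 1.45%.

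Genes were tested when they reached 1 FPKM in at least 3 of the 6 libraries, and 6 of the 9 genes passed (MT2A, MT1E, MT1X, MTF1, MT1A and MT1M). MT1M passed only through the SK4 group, with 3 SK4 and 0 control libraries at 1 FPKM or more. In the limma fit across the 11139 tested genes 0 of the 6 were called at an adjusted p below 0.05, against 0.00898% of all tested genes, which is KCNN4 alone. The same contrast was known when the genes were chosen, so nothing is read from that count. All SK4 values lay above all control values for 1 of the 9 genes (MT1M) and below them for 2 (MT1E and MT1X). Among all tested genes these shares were 3.53% above and 1.81% below. Over all 9 genes, tested or not, 3 had a positive and 6 a negative log2 fold change, with a median of -0.046 beside 0.011 over all tested genes. That median was 0.00295 without SK4 replicate 1.

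MT1M, a type 1 metallothionein (ENSG00000205364.4, chromosome 16 at 56632233 to 56633986), showed the largest difference of the family. It was at 1.23, 1.38 and 1.27 FPKM in SK4 replicates 1 to 3, against 0.82, 0.81 and 0.66 FPKM in control replicates 1 to 3. The lowest SK4 library thus stood above the highest control library, and control replicate 3, the shallowest library, was the lowest of the 6. The means were 1.29 ± 0.0777 FPKM in SK4 and 0.763 ± 0.0896 FPKM in control libraries (SD, n = 3 each), a ratio of 1.69. On the scale of log2(FPKM + 0.5), which understates changes of low genes, the log2 fold change was 0.51 ± 0.094 (SE, 95% confidence interval 0.29 to 0.73). An estimated 42, 48 and 46 fragments lay behind the SK4 values and 28, 29 and 18 behind the control values. Pooled by group this gives 136 fragments, or 1.29 FPKM with an exact 95% Poisson interval of 1.09 to 1.53 FPKM, in SK4 libraries. In control libraries it gives 75 fragments, or 0.765 FPKM with an interval of 0.602 to 0.959 FPKM. The ratio of the pooled rates was 1.69 with an exact interval of 1.27 to 2.27, which covers counting error only and not the spread between libraries. By the same measure MT1E had a ratio of 0.956 (0.924 to 0.989), and the pseudogene MT1L, whose groups overlapped, had 0.757 (0.575 to 0.995). Without any 1 library the log2 fold change of MT1M stayed between 0.45 and 0.54, and without control replicate 3 and SK4 replicate 2 together it was 0.41. Because its groups did not overlap, leaving out libraries could not turn its sign. MT1M was chosen with this difference known, so these intervals and refits are a description and no test.

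**Figure D2:**
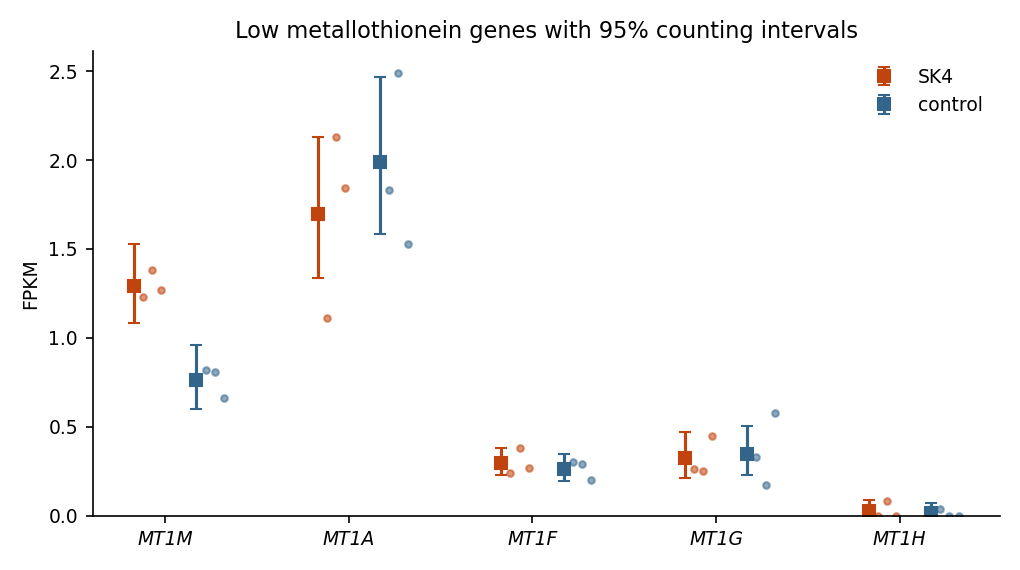
Pooled FPKM of the 5 lowest metallothionein genes (squares) in SK4 and control libraries, with exact 95% Poisson intervals from the estimated fragments as bars and single libraries as small points. The bars show counting error only and are no test of genes chosen with these values known. For MT1M they run from 1.09 to 1.53 FPKM in SK4 and from 0.602 to 0.959 FPKM in control libraries.

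MT2A and MT1E, the abundant genes, and MT1X, which ranked 7174 among the 11139 tested genes, lay slightly lower or level in SK4 libraries. MT1E was at 58.02, 56.60 and 58.36 FPKM in the SK4 libraries, against 62.31, 59.52 and 59.06 FPKM in the control libraries. The groups did not overlap, but the gap between the nearest libraries was under 1 FPKM (log2 fold change -0.064, 95% confidence interval -0.15 to 0.02). MT1X, a broadly expressed isoform, was at 3.17, 3.15 and 2.96 FPKM in the SK4 and 3.22, 3.20 and 3.33 FPKM in the control libraries. Its groups were also just apart, with a log2 fold change of -0.062 (95% confidence interval -0.21 to 0.09). MT2A was at 115.4, 117.4 and 127.8 FPKM in the SK4 and 125.2, 119.0 and 122.5 FPKM in the control libraries. Those values overlap fully, SK4 replicate 3 being the highest of all, and the interval of the fold change ran from 0.912 to 1.06.

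MT1A and MTF1 overlapped between the groups. MT1A was at 1.11, 2.13 and 1.84 FPKM in the SK4 and 1.83, 2.49 and 1.53 FPKM in the control libraries. It varied most among the tested members, with coefficients of variation of 31.0% in SK4 and 25.2% in control libraries, where counting error alone gives 16.2% to 25% per library. Its log2 fold change of -0.17 (95% confidence interval -0.67 to 0.32) was 0.037 without SK4 replicate 1. MTF1, the zinc sensor that drives the family, was at 2.25, 1.91 and 2.16 FPKM in the SK4 and 2.37, 2.17 and 2.03 FPKM in the control libraries (log2 fold change -0.046, 95% confidence interval -0.25 to 0.16).

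The 3 genes under the filter showed no ordering by plasmid. MT1G was at 0.26, 0.25 and 0.45 FPKM in the SK4 and 0.33, 0.17 and 0.58 FPKM in the control libraries. MT1F was at 0.24, 0.38 and 0.27 FPKM in the SK4 and 0.30, 0.29 and 0.20 FPKM in the control libraries. MT1H was listed at 0, 0.08 and 0 FPKM in the SK4 and 0.04, 0 and 0 FPKM in the control libraries, at or under 3 fragments in each group. All 3 had groups that overlapped.

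**Figure D3:**
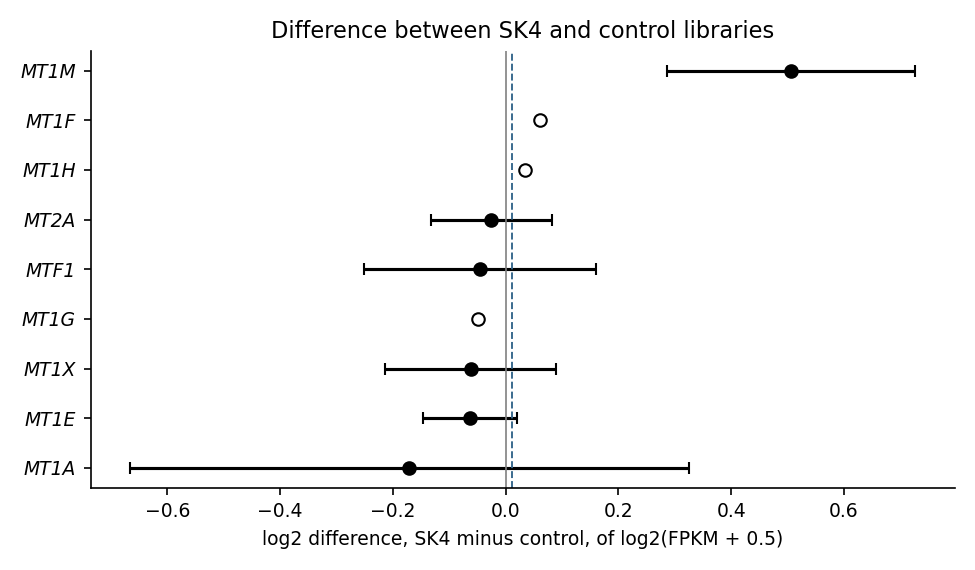
Log2 difference between SK4 and control libraries (SK4 minus control, horizontal axis) for the 9 genes, as filled points with 95% confidence intervals from the limma fit for the 6 tested genes and open points for the 3 others. The dashed line is the median of all tested genes at 0.011, and the points run from -0.17 (MT1A) to 0.51 (MT1M); the genes were chosen with these values known, so the intervals show spread and are no test.

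The summed FPKM of the 8 genes was 179.4, 181.3 and 192.9 in the SK4 libraries, against 194.1, 185.4 and 187.9 in the control libraries (184.6 ± 7.31 in SK4 and 189.1 ± 4.46 in control, SD, n = 3 each), so the groups overlapped. MT2A made up 64.3% to 66.2% of the sum in SK4 and 64.1% to 65.2% in control libraries. The ratio of MT2A to MT1E was 1.99 to 2.19 in SK4 and 2.00 to 2.07 in control libraries. MT1M made up 0.658% to 0.761% of the sum in SK4 and 0.351% to 0.437% in control libraries. The difference in MT1M therefore concerns under 1% of the summed FPKM of the 8 genes.

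MT1M lies 24.0 kb after the start of MT2A, between MT1E at 17.3 kb and the pseudogene MT1JP at 27.5 kb. MT1JP averaged 0.02 FPKM in both groups. Of the 11 other family genes looked for, 8 had a row, and 1, the pseudogene MT1L, was tested. MT1L was at 1.87, 2.31 and 2.28 FPKM in the SK4 and 3.86, 1.83 and 2.95 FPKM in the control libraries, so the groups overlapped. MT1B, MT3, which is known from brain, and MT4, known from stratified epithelia, did not exceed 0.20 FPKM in the SK4 libraries and were listed at 0 in the control libraries. Each rested on an estimated 2 fragments, all in 1 SK4 library, so no difference is read from them. MT1DP, MT1IP, MT1JP and MT1P1 did not exceed 0.28 FPKM in SK4 and 0.46 FPKM in control libraries. The nearest tested protein-coding gene on each side of the cluster was not called (limma). OGFOD1, 129099 bp before MT2A, was at 12.5 ± 0.604 FPKM in SK4 and 12.4 ± 0.901 FPKM in control libraries. NUP93, a nuclear pore gene 45909 bp after MT1X, was at 7.75 ± 0.136 FPKM in SK4 and 7.53 ± 0.115 FPKM in control libraries. The values of both genes overlapped between the groups.

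**Figure D4:**
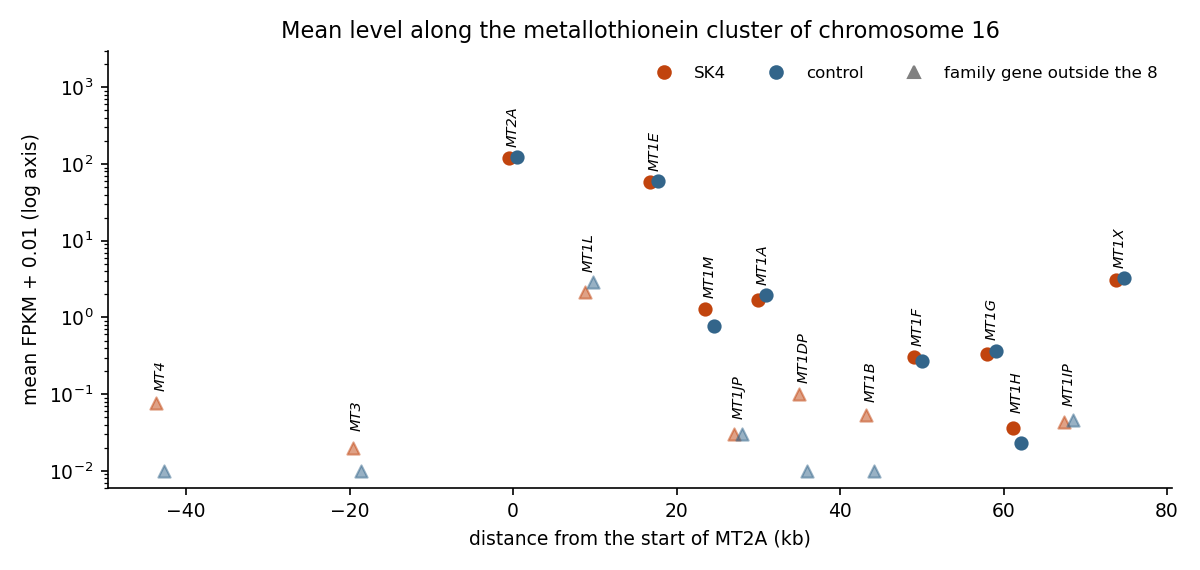
Mean FPKM + 0.01 (vertical log axis) of the family genes on chromosome 16 in SK4 and control libraries, against the distance from the start of MT2A in kb. Circles are the 8 genes described and triangles other family genes. MT2A and MT1E stand out by level, and MT1M averages 1.29 FPKM in SK4 and 0.763 FPKM in control libraries. MT1X averages 3.09 FPKM in SK4 and 3.25 FPKM in control libraries, beside 2.15 and 2.88 FPKM for the pseudogene MT1L.

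Near-identical copies could share reads, and the sources used here do not say how the authors treated such reads. Values within the family are uncertain to that extent. In the GENCODE release 29 transcripts, 9.87% of the 50-nt windows of MT1M also occurred in a transcript of another gene, mostly MT1JP and MT1E. This share was highest for MT1X at 18.3%. For MT1G it was 16.5%, for MT1A 5.76%, for MT1E 7.10% and for MT2A 3.02%. At 100 nt the share was 0% for MT1M, MT1A, MT1E, MT1F, MT1G and MT2A. At 150 nt, the length of 1 read, MT1X was the exception with 8.58%, shared with AC026461.1. Only exact matches were counted, so these shares do not cover reads aligned with mismatches.

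The other genes of metal handling were compared in the same fit, in 6 lists that hold 58 genes. Of these, 45 were tested, and 0 were called higher and 0 lower (limma). Called genes were 0.00898% of all tested genes. At an unadjusted p below 0.05 there were 3 of the 45, against 184 of the 11139 tested genes. In all 45 genes the 95% confidence limits of the fold change stayed within 1.5-fold, up or down. The median log2 fold change was 0.03, beside 0.011 over all tested genes. Of the 45 genes, 33 were positive and 12 negative, a split that was not counted over all tested genes, so nothing is read from it. Control replicate 3, the library that was lower over all genes, held the lowest of the 6 values for 26 of the 45, and its part in the medians was not tested. That number was not counted over all tested genes either, so nothing particular to these lists is read from it.

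Among known MTF1 target genes outside the family, none of the 4 tested was called (limma). SLC30A1, the zinc exporter of the plasma membrane and the best known target that MTF1 activates, was at 6.86, 5.79 and 6.25 FPKM in the SK4 and 6.43, 6.38 and 5.11 FPKM in the control libraries. The values overlapped, and the log2 fold change was 0.075 (95% confidence interval -0.16 to 0.31). GCLC, the catalytic subunit of glutathione synthesis, averaged 3.37 ± 0.482 FPKM in SK4 and 2.97 ± 0.296 FPKM in control libraries. SLC30A2, a zinc exporter gene, had a log2 fold change of 0.03. SLC39A10, a zinc importer gene that MTF1 is known to repress in mouse, had 0.08. PGF, a placental growth factor gene under the filter, was at 0.51, 0.44 and 0.50 FPKM in the SK4 and 0.32, 0.35 and 0.34 FPKM in the control libraries, so its groups did not overlap. All SK4 values lay above all control values in 0 of the 4 tested targets and in 3.53% of all tested genes.

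No zinc transporter was called (limma). Of the SLC30 exporters 6 of 10 were tested and of the SLC39 importers 11 of 14, with median log2 fold changes of 0.032 and 0.026. SLC39A1, the most abundant importer, was at 118.7 ± 2.72 FPKM in SK4 and 119.8 ± 4.45 FPKM in control libraries. SLC39A7, which releases zinc from the endoplasmic reticulum, was at 61.3 ± 1.67 FPKM in SK4 and 62.1 ± 3.12 FPKM in control libraries, and SLC39A6 had a log2 fold change of 0.033. Among the exporters, SLC30A5 and SLC30A6, which load zinc into the secretory pathway, had log2 fold changes of -0.04 and -0.039.

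Copper handling, glucocorticoid and stress genes gave no call either. The copper list had 11 of 13 genes tested and a median log2 fold change of 0.0027, with SOD1, the copper-zinc superoxide dismutase, at 83.6 ± 3.39 FPKM in SK4 and 83.5 ± 4.22 FPKM in control libraries. SCO2 and COX17, which deliver copper to cytochrome oxidase, had log2 fold changes of 0.027 and -0.068. CCS, the copper chaperone of SOD1, named after its values were seen, was at 2.43, 2.79 and 2.37 FPKM in the SK4 and 3.04, 3.03 and 2.99 FPKM in the control libraries. It had an unadjusted p below 0.05 and was not called (limma adjusted p = 0.99997). Glucocorticoid-induced genes had a median of 0.052 over 7 tested genes, with CEBPD at 0.052 and ERRFI1 at -0.021. NFKBIA, which encodes an inhibitor of NF-kB, was at 93.6, 89.7 and 87.1 FPKM in the SK4 and 83.0, 86.4 and 79.7 FPKM in the control libraries. It had an unadjusted p of 0.028 in the limma fit and was not called. TSC22D3 and SGK1, a glucocorticoid-induced leucine zipper gene and a kinase gene, named after their values were seen, also had groups that did not overlap, the SK4 libraries being higher, with log2 differences of 0.13 (not called, limma) and 0.17 (under the filter, not tested). Metal and oxidative stress genes had a median of 0.027 over 9 tested genes, with the thioredoxin reductase gene TXNRD1 at 0.018, SRXN1 at -0.012 and the co-chaperone gene BAG3 at 0.076. HSPA6, a heat shock gene also named after its values were seen, was at 2.93, 2.78 and 2.95 FPKM in the SK4 and 2.61, 2.03 and 2.43 FPKM in the control libraries (limma adjusted p = 0.99997). All SK4 values lay above all control values in 2 of the 7 tested glucocorticoid-induced genes, NFKBIA and TSC22D3. The same held for 2 of the 9 tested stress genes, HSPA6 and BAG3. All SK4 values lay below in 1 of the 11 tested copper genes, CCS. Among all tested genes these shares were 3.53% above and 1.81% below. The lists were chosen with earlier results known, so nothing is read from these counts.

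**Figure D5:**
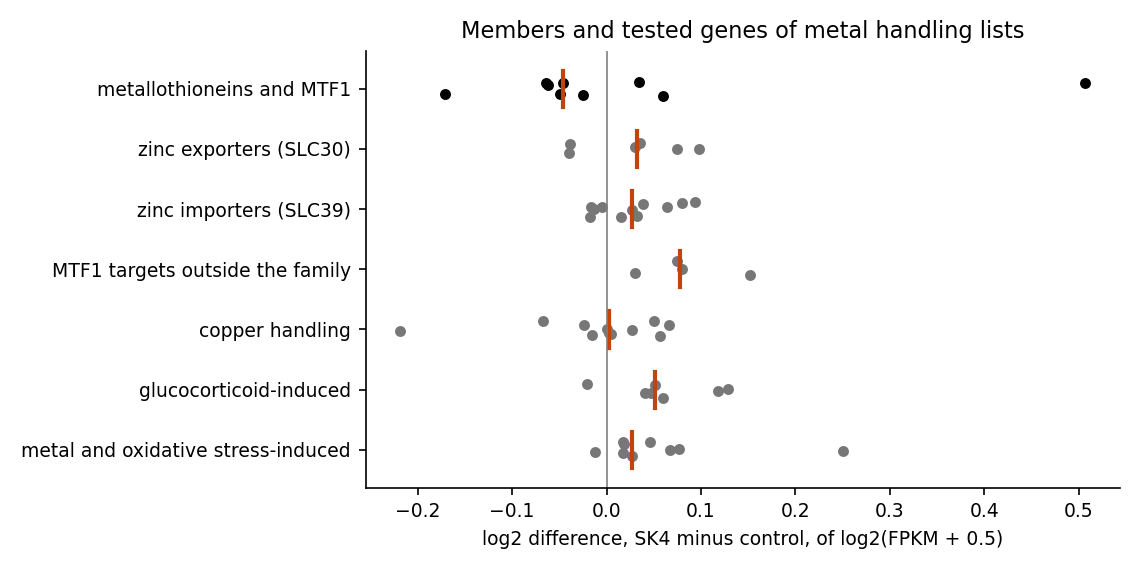
Log2 difference between SK4 and control libraries (SK4 minus control, horizontal axis) of the 9 metallothionein and MTF1 genes (black) and of the tested genes of 6 metal handling and induction lists (grey), with list medians as vertical bars. MT1M at 0.51 is the point farthest from 0, and the list medians lie between -0.046 and 0.077.

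The 5 tested metallothionein genes were averaged into 1 profile over the libraries. The mean of their centred log2 values was -0.078, 0.084 and 0.05 in SK4 replicates 1 to 3 and -0.0018, 0.038 and -0.092 in control replicates 1 to 3. SK4 replicate 1 and control replicate 3 were the low ones. MT1A, the most variable of the 5, had the largest negative deviations from its group mean in the same 2 libraries (log2 differences of -0.42 and -0.25). In SK4 replicate 1, MT2A (-0.057) and MT1M (-0.051) also lay below their group means, while MT1X (0.031) and MT1E (0.009) lay above. In control replicate 3, MT1M (-0.12) and MT1E (-0.029) lay below, while MT1X (0.031) and MT2A (0.0038) lay above. The low mean in these libraries was thus not shared by all 5 genes. The genes closest to this profile, by root mean square difference over the 6 libraries, were RP11-1246C19.1 (0.0114), LARS2 (0.0191), AC007040.11 (0.0202), AREG (0.0207) and DPP3 (0.0216), where the median tested gene was at 0.104. LARS2 is a mitochondrial leucyl-tRNA synthetase gene, AREG encodes the growth factor amphiregulin, and DPP3 encodes a zinc-dependent peptidase. With 6 libraries and 11139 genes, such closeness is a description of these libraries.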

How the data were processed

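The authors deposited 1 table of FPKM values, rounded to 2 decimals, with 1 column per library. The submitters' processing notes name HISAT2 and GRCh38. For the version, the counter, the annotation and the handling of shared reads, the entry is not given in the sources used here. Per the labels' protocols, polyadenylated RNA was captured, strand was kept, and 150-nt paired-end reads were sequenced. Samples were grouped by title.

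Values were taken as log2(FPKM + 0.5), and genes at 1 FPKM or more in at least 3 of 6 libraries (11139 of 32896) were fitted with limma 3.58.1 in R 4.3.3 (group as the only term, trended and robust prior variance, Benjamini-Hochberg adjustment over all tested genes). The fit was tested on simulated data. An exact permutation test (two-sided) on KCNN4 returned p = 0.1, which is the lowest value possible with 3 against 3. FPKM values were not given to a count model.

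Depth was estimated from 561 single-exon genes under 160 nt, whose low values are multiples of 1 fragment (99.4% to 99.5% of values worth up to 5 fragments were whole within 0.1). Fragments per gene are that depth times FPKM times summed exon length in GENCODE release 29, whose annotation may differ from the authors' (31742 identifiers matched without version suffix). Intervals cover counting error only.

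The members, lists and tests were chosen with earlier results of these data known. Genes named by rule were the 9 members, KCNN4, the other family genes, the MTF1 targets, the 3 tested genes of highest level in each other list, tested neighbours of the cluster (not all are reported here) and the 5 genes of most similar profile. Protein sequences were not used here.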

Additional observations from a re-analysis of the deposited data

How the results depend on the processing

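The alternatives were 2 other pseudocounts, 3 other filters on low values, 2 scalings, a constant prior variance, library weights, the replicate number as a term, leaving out each library and leaving out control replicate 3 and SK4 replicate 2 together, 17 in all. In 16 of them 6 of the 9 genes were tested, and without a filter all 9 were. No tested gene of the 9 and none of the 6 metal handling lists was called in any of the 17 (limma). KCNN4 was called higher in all 17. The number of called genes was 1 in the main setting and in 16 alternatives, and 4 when control replicate 3 and SK4 replicate 2 were both left out, where SNORD99, SNORD4A and 7SK joined KCNN4. The cause was not tested. Over the 9 genes, the median log2 fold change ranged from -0.061 (without SK4 replicate 3) to 0.00295 (without SK4 replicate 1) when 1 library was left out, and was -0.046 with all, so its sign changed.

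Among single genes, MT1M was positive in all 17 alternatives (0.38 with a pseudocount of 1 to 0.69 with a pseudocount of 0.1), and MT1E and MT1X were negative in all 17. The groups of MT1M, MT1E and MT1X did not overlap, so leaving out or weighting libraries or changing the pseudocount could not turn their sign. The other filters, the constant prior variance and the replicate number as a term left every fold change as it was. Nothing is therefore read from the constant sign. MT1A turned sign in 1, MT2A and MTF1 in 2, MT1H in 3, MT1F in 4 and MT1G in 5 of the 17.

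Same-numbered libraries did not deviate together: the correlations of their deviations from the group means over the tested genes were 0.31, -0.41 and -0.15 for replicates 1 to 3, so the numbers were not taken to pair the libraries. The highest correlation of any pair was 0.53, for SK4 replicate 2 with control replicate 3. The lowest was -0.46, for SK4 replicate 1 with control replicate 3. The source of these shared deviations was not tested. With the replicate block 1 gene was called, KCNN4 (log2 fold change 4.23), and 0 of the 6 tested members. Depth limits MT1H, MT1G and MT1F most, with at most 13 fragments per library for MT1G and 26 for MT1F.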
